A study of Mus musculus with 12 samples.

Results

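The 10 serpin genes described here lie in a cluster on mouse chromosome 12 and were followed through the first hours after partial hepatectomy. They are the 5 Serpina1 copies (Serpina1a to Serpina1e), 4 Serpina3 copies (Serpina3k, Serpina3m, Serpina3n and Serpina3g) and Serpina6, taken by gene symbol as 10 of the 54532 genes in the deposited table. All 10 were above the expression filter and were among the 11451 genes tested. Whole livers of wild-type C57/BL6J mice were profiled by poly(A) RNA sequencing after a sham operation or at 3, 6 or 12 h after resection of 70% of the liver, with 3 libraries per group. All groups carry the same genotype and none carries a transgene, the sham livers are labelled without an hour, and age and sex are not given in the sources used here. Replicate 3 of the 6 h group has a time tag of 7 h beside its 6 h title and was placed with its title. Separate animals are not stated for the libraries, so a p-value may describe only the scatter among these samples.

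Serpins are secreted or intracellular proteins that offer a protease an exposed stretch, the reactive centre loop, and trap the protease when it cuts there. Hepatocytes make most plasma serpins, and α1-antitrypsin, the Serpina1 product, is among the most abundant of them and protects tissue from neutrophil elastase. Mice carry several Serpina1 and Serpina3 copies where humans carry a single active gene of each kind, and the loop of each copy sets which proteases it can trap. Serpina3n is a secreted acute phase inhibitor of serine proteases such as granzyme B, Serpina3g acts inside cells on cathepsins, and Serpina6 encodes corticosteroid-binding globulin, a serpin that carries glucocorticoids in plasma and inhibits no protease.

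The 10 genes lie within 767.7 kb, from chr12:103646630 to chr12:104414329 on GRCm38, in a region where GENCODE M21 lists 28 Serpina genes. The coding stretch of the loop is shown for the Serpina1 copies because it holds the bond that the target protease cuts, and because these near-identical genes are less alike there (84.8% to 93.9% for the 10 pairs) than over the whole coding sequence. It is read 5′ to 3′ on the coding (minus) strand, 66 bases each, and capitals mark the 15 bases that are not the same in all 5 copies.
Serpina1a, chr12:103853765-103853830: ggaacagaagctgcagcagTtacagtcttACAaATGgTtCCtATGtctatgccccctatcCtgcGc
Serpina1b, chr12:103728332-103728397: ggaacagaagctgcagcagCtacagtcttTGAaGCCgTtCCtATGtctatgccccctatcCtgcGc
Serpina1c, chr12:103895102-103895167: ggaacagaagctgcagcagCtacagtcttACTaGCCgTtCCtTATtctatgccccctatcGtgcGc
Serpina1d, chr12:103763770-103763835: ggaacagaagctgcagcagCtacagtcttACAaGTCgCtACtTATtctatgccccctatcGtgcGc
Serpina1e, chr12:103947108-103947173: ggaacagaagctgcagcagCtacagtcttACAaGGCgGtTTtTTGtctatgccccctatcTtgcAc
The codon just before the shared tctatg was ATG in Serpina1a and Serpina1b, TAT in Serpina1c and Serpina1d, and TTG in Serpina1e. This codon specifies the residue after which the target protease cuts. Over the whole coding sequence the 10 Serpina1 pairs were 96.3% to 98.5% identical, while in the loop Serpina1c and Serpina1d differed at 4 bases and Serpina1a and Serpina1e at 10.

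The 4 Serpina3 loops are shown for the same reason, on the plus strand, with capitals for the stretch that follows the hinge codons.
Serpina3k, chr12:104345269-104345337: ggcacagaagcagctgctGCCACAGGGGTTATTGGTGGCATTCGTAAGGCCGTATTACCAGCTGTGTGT
Serpina3m, chr12:104393769-104393843: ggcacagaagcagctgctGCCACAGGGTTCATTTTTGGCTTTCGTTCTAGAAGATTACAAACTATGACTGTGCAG
Serpina3n, chr12:104413448-104413522: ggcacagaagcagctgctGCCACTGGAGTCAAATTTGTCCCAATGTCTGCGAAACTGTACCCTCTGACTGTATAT
Serpina3g, chr12:104241072-104241146: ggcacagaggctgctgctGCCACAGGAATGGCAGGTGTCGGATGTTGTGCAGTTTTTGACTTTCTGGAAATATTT
The hinge was letter for letter the same in Serpina3k, Serpina3m and Serpina3n, and the loops then parted, with 25 of 75 bases different between Serpina3m and Serpina3n and 35 of 75 between Serpina3m and Serpina3g. Over the aligned bases of the coding sequences, Serpina3 pairs were 82.3% to 92.0% identical, and a Serpina1 and a Serpina3 gene 61.7% to 68.3%. The Serpina3g coding sequence has 744 bases, against 1254 in Serpina3k, Serpina3m and Serpina3n, so its pairs cover only part of the partner. The 82.3%, with Serpina3m, rests on 648 aligned bases, and the 68.3%, with Serpina1a, on 738.

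These likenesses bear on how far the copies can be told apart by short reads. Of all 100-base stretches in a gene's exons, 58.5% were shared exactly with another serpin of the cluster for Serpina1c, 40.8% for Serpina1a, 26.3% for Serpina1d, 14.4% for Serpina1e and 13.8% for Serpina1b. The shares were 6.09% for Serpina3m, 4.85% for Serpina3k, 3.49% for Serpina3g, 0.204% for Serpina3n and 0 for Serpina6. Read length, strand and the treatment of reads with several matches are not given in the sources used here, so the split among Serpina1 copies, Serpina1c above all, is uncertain, and Serpina6 is free of it. With stretches of 50 bases the shares are higher, 73.3% for Serpina1c, 51.4% for Serpina1a, 48.0% for Serpina1d, 34.6% for Serpina1e, 28.2% for Serpina1b, 19.1% for Serpina3m, 15.5% for Serpina3g, 14.0% for Serpina3k, 6.90% for Serpina3n and 0 for Serpina6. The deposited Serpina3m gene also begins at the start of Serpina3k, with a first exon of 60 bases in common, and the deposited Serpina1b gene spans Serpina1d without an exon in common.

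Library totals lay between 15573405 and 17199639 counts. Mitochondrially encoded genes held 11.9% of the counts of sham replicate 1 and 5.52% to 8.49% in the other libraries, and that library's lowest correlation with a library of its group was 0.950, against at least 0.978 within the 3 h, 6 h and 12 h groups. Serpin calls that changed without it are given beside the result. Hepatocyte markers summed to between 86677 and 96318 CPM (counts scaled to library size) in sham libraries, and none of 12 T, NK and B cell markers reached the expression filter, at a summed 1.62 to 8.54 CPM over all libraries.

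Serpina3n, Serpina3m, Serpina3k and Serpina3g rose within 3 h of resection, and all 4 were called higher again at 6 h, a call that Serpina3g lost under some alternatives given with its values. Differences are on the log2 scale (± SE) with p-values adjusted over all tested genes by the edgeR quasi-likelihood test. At 3 h 4 of the 10 genes were called, all higher (Serpina6 was lower at an unadjusted p under 0.05), where 9.81% of all tested genes were called higher, 11.7% lower and 21.6% in either direction. At 6 h 4 were higher and 1, Serpina6, was lower, where 16.8% of tested genes were higher, 18.2% lower and 35% either. At 12 h 3 were higher (Serpina3k, Serpina3m and Serpina3n) and 2 were lower (Serpina1d and Serpina6), where 13.5% of tested genes were higher, 15.3% lower and 28.8% either. The median difference of the 10 genes was 0.27 at 3 h, 0.38 at 6 h and -0.21 at 12 h, and that of all tested genes was -0.02, -0.01 and -0.02. The 3 comparisons use the same sham libraries.

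**Figure D1:**
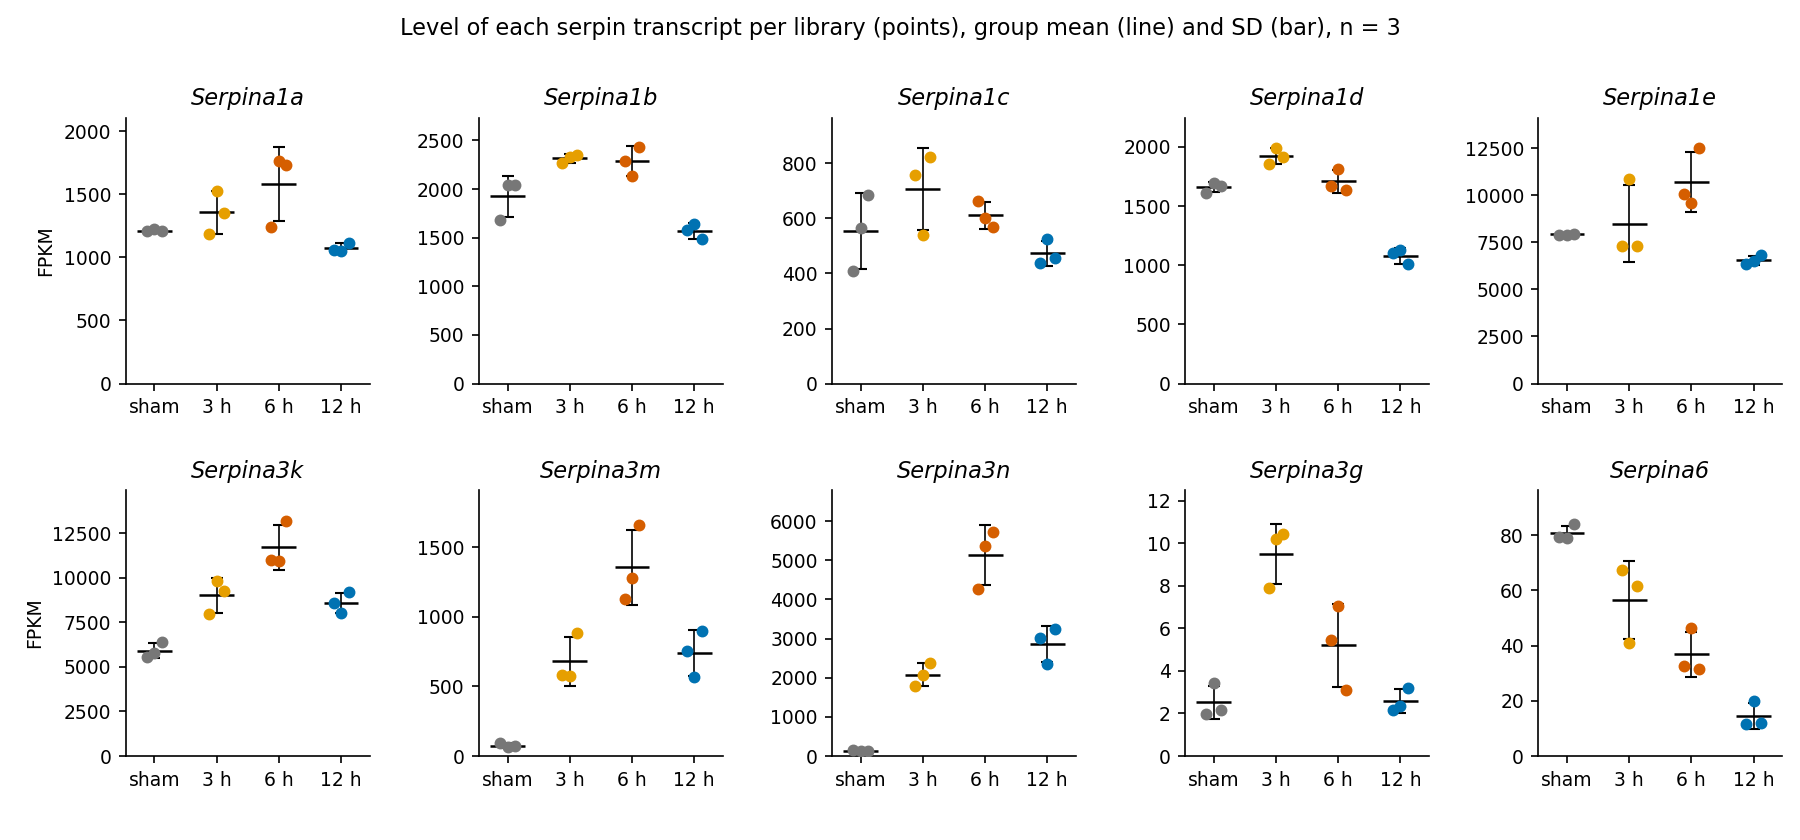
Level of each of the 10 serpin transcripts in FPKM (vertical axis, from 0, own scale in each panel) in the 12 libraries by group, with the group mean as a line and the SD as a bar. Serpina3n, Serpina3m and Serpina3k are highest at 6 h, Serpina3g at 3 h, and Serpina6 is lower in each later group, with means of 80.7, 56.5, 36.8 and 14.4.

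Serpina3n, the acute phase copy, showed the largest response of the 10. Its levels in FPKM (fragments per kilobase of gene, scaled for library size) were 147, 126 and 129 in the sham libraries. At 3 h they were 1796, 2059 and 2379, at 6 h 4269, 5375 and 5734, and at 12 h 3006, 2353 and 3246. No library taken after resection overlapped the sham libraries, and the 6 h libraries all lay above those of 3 h and 12 h. Mean levels were 15.5, 38.2 and 21.4 times the sham mean, and the fitted differences were 3.91 ± 0.18, 5.23 ± 0.19 and 4.41 ± 0.19 (edgeR adjusted p = 1.17e-07, 6.03e-09 and 3.36e-08). By size of rise it stood at rank 59, 35 and 34 among the 11451 tested genes. Among the tested genes by mean level it moved from rank 296 in sham liver to rank 21 at 6 h.

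Serpina3m, a further antichymotrypsin-like copy, followed the same course at a lower level. It was at 91.8, 61.4 and 70.0 FPKM in sham libraries, at 580, 577 and 880 at 3 h, at 1128, 1277 and 1656 at 6 h, and at 753, 567 and 895 at 12 h. The groups after resection did not overlap sham, while the 3 h and 12 h libraries overlapped each other. The differences from sham were 3.15 ± 0.24, 4.16 ± 0.25 and 3.30 ± 0.24 (edgeR adjusted p = 2.94e-06, 1.74e-07 and 1.74e-06).

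Serpina3k, the trypsin inhibitor contrapsin, was already the second most abundant of the 10 in sham liver and rose by less. Sham libraries held 5573, 5763 and 6382 FPKM, the 3 h libraries 7937, 9794 and 9269, the 6 h libraries 10980, 10934 and 13174, and the 12 h libraries 8561, 8035 and 9181. Every library taken after resection was above every sham library. The differences were 0.57 ± 0.13, 0.96 ± 0.14 and 0.53 ± 0.13 (edgeR adjusted p = 0.00887, 0.000128 and 0.0104). Without 12 h replicate 3 the last was 0.48 and was not called (adjusted p = 0.052).

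Serpina3g, the intracellular cathepsin inhibitor, was scarce and, alone among the 4 Serpina3 copies, had its highest mean at 3 h. Its counts were 71, 134 and 88 in sham libraries, 269, 326 and 315 at 3 h, 163, 228 and 89 at 6 h, and 84, 90 and 121 at 12 h. In FPKM the means were 2.53 ± 0.78, 9.50 ± 1.41, 5.19 ± 1.97 and 2.57 ± 0.57 (SD, n = 3). The 3 h libraries lay above all others, and a 6 h library, replicate 3 at 3.11 FPKM, fell inside the sham range. The difference from sham was 1.86 ± 0.29 at 3 h (edgeR adjusted p = 0.000628), 1.01 ± 0.29 at 6 h (adjusted p = 0.016) and 0.01 ± 0.30 at 12 h (adjusted p = 0.983). The 6 h call was lost without sham replicate 3 (0.91, adjusted p = 0.0557) or 6 h replicate 2 (0.73, adjusted p = 0.0917), with library totals (0.70, adjusted p = 0.0815) and with only the 6 libraries compared (1.0, adjusted p = 0.0594). Serpina3g is also made by leukocytes, and the summed CPM of 12 neutrophil markers were 3.41 to 4.30 in sham, 13.5 to 17.0 in the 3 h libraries, 10.5 to 19.0 in those of 6 h, and 6.59 to 8.58 at 12 h, with Mpo at 0 in every library. The sum of 12 Kupffer cell and monocyte markers was 159 to 219 in sham and 193 to 248 at 3 h. In the 6 h libraries the Kupffer cell and monocyte sum lay between 139 and 166 CPM, and in the 12 h libraries between 121 and 147. The part of these cells in the Serpina3g result was not tested.

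Serpina3n and Serpina3m differed from sham by 3.15 or more, while the 5 Serpina1 genes stayed between -0.63 and 0.41. None of the 5 was called at 3 h or 6 h by edgeR, DESeq2 or limma, and at an unadjusted edgeR p under 0.05 the count was 0 at 3 h and 2 at 6 h (Serpina1a and Serpina1e, both higher). At 12 h edgeR called 1 copy, Serpina1d, lower. Serpina1e, the most abundant copy, was at 7893, 7905 and 7948 FPKM in sham libraries, at 7308, 10854 and 7323 at 3 h, at 10046, 9559 and 12521 at 6 h, and at 6332, 6498 and 6809 at 12 h. All 6 h libraries were above sham and all 12 h libraries below it, but the differences of 0.41 ± 0.17 and -0.28 ± 0.17 were not called (edgeR adjusted p = 0.0748 and 0.223). Without 3 h replicate 2, which lay apart from its group, the 6 h difference of 0.41 was called (adjusted p = 0.0275).

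Serpina1d was at 1614, 1695 and 1666 FPKM in sham, at 1854, 1994 and 1917 at 3 h, at 1672, 1815 and 1637 at 6 h, and at 1100, 1128 and 1007 at 12 h. The 12 h libraries were below all others, with a difference from sham of -0.63 ± 0.11 (edgeR adjusted p = 0.00136). In size this was close to the rises of Serpina3k at 3 h and 12 h (0.57 and 0.53). Serpina1b had means of 1923, 2317, 2288 and 1569 FPKM, Serpina1a of 1212, 1355, 1579 and 1076, and Serpina1c of 554, 707, 611 and 473, in the order sham, 3 h, 6 h and 12 h. Their differences from sham ranged from 0.11 to 0.35 at 3 h and 6 h and from -0.30 to -0.18 at 12 h. Serpina1b was called lower at 12 h by DESeq2 (-0.30, adjusted p = 0.0218) and by edgeR without sham replicate 1 (-0.40, adjusted p = 0.00886), and Serpina1a higher at 6 h without 6 h replicate 1 (0.50, adjusted p = 0.0165).

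A sum over the 5 Serpina1 copies does not depend on how the counted reads were split among them. If reads with several matches were left uncounted, which is not stated, they are missing from the sum as well. The summed Serpina1 counts differed from sham by 0.12 ± 0.14 at 3 h, 0.32 ± 0.14 at 6 h and -0.31 ± 0.14 at 12 h (edgeR adjusted p = 0.562, 0.0827 and 0.105). The last passed the threshold without sham replicate 1 (-0.34, adjusted p = 0.0483). The sum over the 4 Serpina3 copies was higher by 0.89 ± 0.14, 1.53 ± 0.14 and 0.97 ± 0.14 (edgeR adjusted p = 0.000645, 4.64e-06 and 0.000301). The summed Serpina3 level was 6117 ± 410 FPKM in sham and 18180 ± 2153 at 6 h, and that of Serpina1 was 13263 ± 401 and 16894 ± 1731 (SD, n = 3). The 10 genes together took 3.58% to 4.26% of all counts in sham libraries and 5.54% to 6.34% at 6 h.

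**Figure D2:**
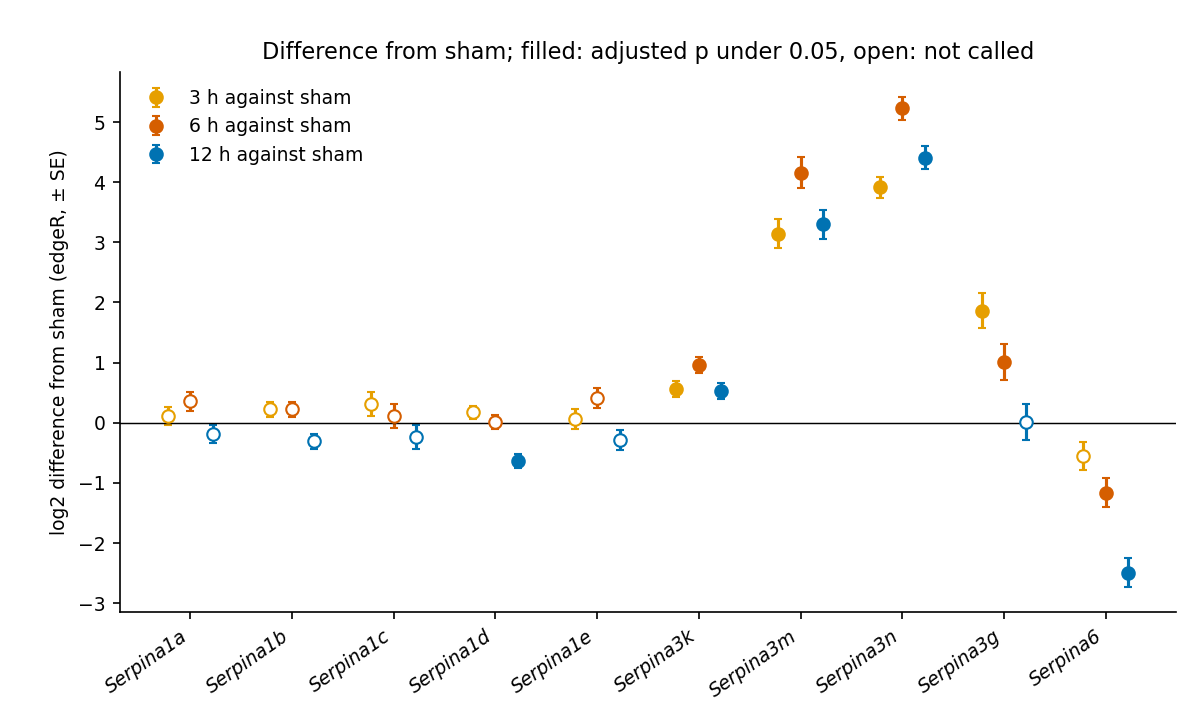
Difference from sham on the log2 scale (vertical axis, edgeR estimate ± SE) for the 10 genes at 3, 6 and 12 h, filled where the adjusted p was under 0.05 and open otherwise. The Serpina1 points lie between -0.63 and 0.41, Serpina3n and Serpina3m lie between 3.15 and 5.23, and Serpina6 reaches -2.49 at 12 h.

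Serpina6, the glucocorticoid carrier, was lower after resection, where Serpina3k, Serpina3m and Serpina3n were higher. It was at 79.4, 79.0 and 83.9 FPKM in sham libraries, at 67.4, 40.7 and 61.4 at 3 h, at 32.7, 46.2 and 31.6 at 6 h, and at 11.7, 19.8 and 11.9 at 12 h. Every library after resection was below every sham library, and every 12 h library was below every other. The difference was -0.55 ± 0.23 at 3 h, not called (edgeR adjusted p = 0.109), then -1.16 ± 0.23 at 6 h (adjusted p = 0.0018) and -2.49 ± 0.25 at 12 h (adjusted p = 1.68e-05). The 5 Serpina1 copies were below sham at 12 h as well, by differences of -0.63 to -0.18, of which only that of Serpina1d was called. In whole liver, fewer cells of a type and less RNA per cell cannot be told apart. Summed hepatocyte markers were 84183 to 98258 CPM at 6 h and 60267 to 66777 at 12 h. At 12 h 5 of the 7 tested were called lower, with a median difference of -0.65. Apob and Cps1 were not, with means of 449 and 1095 FPKM at 12 h against 426 and 768 in sham. The part of these markers in the 12 h values of Serpina6 and Serpina1d was not tested.

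Between successive times, from 3 h to 6 h, 2 of the 10 were called, both higher, where 4.45% of tested genes were higher, 4.18% lower and 8.63% either. These were Serpina3n (1.32 ± 0.16, edgeR adjusted p = 0.000599) and Serpina3m (1.01 ± 0.22, adjusted p = 0.0154). Serpina3m lost its call without 3 h replicate 1, 3 h replicate 2 or 6 h replicate 3 (0.84 to 0.91, adjusted p = 0.06 to 0.0835), and the count of called genes was 1 without 3 h replicate 1 or 6 h replicate 3 and 4 without sham replicate 1. The latter added Serpina3k (0.39, adjusted p = 0.0354) and Serpina3g (-0.85, adjusted p = 0.0395).

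From 6 h to 12 h 9 of the 10 were called, all lower, where 12.1% of tested genes were higher, 12.6% lower and 24.7% either. Over the same interval the hepatocyte markers fell from a summed 84183 to 98258 CPM to 60267 to 66777 CPM. Of the 7 tested 4 were called lower, with a median difference of -0.68. Means went from 436 to 449 FPKM for Apob and from 1106 to 1095 for Cps1. The part of these markers in the serpin falls was not tested. Serpina1c was the exception among the serpins (-0.35 ± 0.19, edgeR adjusted p = 0.207). Serpina6 fell by 1.33, Serpina3g by 1.0, Serpina3m by 0.86, Serpina3n by 0.82, Serpina1e by 0.69, Serpina1d by 0.65, Serpina1a by 0.54, Serpina1b by 0.53 and Serpina3k by 0.43 on the log2 scale. The calls on Serpina6, Serpina3n, Serpina1b, Serpina1d and Serpina1e held whichever library was left out. Those on Serpina1a, Serpina3k, Serpina3g and Serpina3m did not: each was lost without at least 2 of the 6 single libraries of these times, with adjusted p of 0.0501 to 0.129, and 5 genes were called without 12 h replicate 2. Scaling by library totals moved the median of all tested genes in this comparison to 0.26 and left 3 calls, Serpina1d, Serpina3n and Serpina6.

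From 3 h to 12 h 1 gene was called higher and 5 were called lower, where 17.8% of tested genes were higher, 18.2% lower and 36% either. Serpina3g fell by 1.85, Serpina6 by 1.94, Serpina1d by 0.80, Serpina1b by 0.53 and Serpina1c by 0.55, while Serpina3n rose by 0.50 ± 0.16 (edgeR adjusted p = 0.0299). The Serpina3n call was lost without 3 h replicate 1 or 2 or without 12 h replicate 1 or 3 (0.40 to 0.50, adjusted p = 0.0679 to 0.128). The Serpina1c call (adjusted p = 0.0418) was lost without any of 8 libraries, sham replicate 2, 6 h replicates 1 and 2, 3 h replicates 1 and 3, and each of the 12 h replicates (-0.63 to -0.44, adjusted p = 0.0522 to 0.144).

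The makeup of the Serpina3 family changed with time. Serpina3k held 96.7% ± 0.54 of the family's counts in sham liver, 77.2% ± 2.30 at 3 h, 65.1% ± 2.46 at 6 h and 71.2% ± 2.34 at 12 h (SD, n = 3). Serpina3n went from 2.21% ± 0.30 to 17.9% ± 1.28, 28.6% ± 2.29 and 23.7% ± 1.72, and Serpina3m from 1.03% ± 0.26 to 4.86% ± 1.02, 6.25% ± 0.51 and 5.06% ± 0.66. Shares differed among the 4 groups for Serpina3k and Serpina3n (exact permutation test over 369600 assignments, p = 6.5e-05 each, the smallest it can give, adjusted p = 0.000292 over the 9 copies). They also differed for Serpina3m and Serpina3g (exact permutation test, adjusted p = 0.00672 each).

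Among the Serpina1 copies the shares were steadier. Serpina1e held 56.3% ± 1.8 of the family's counts in sham, 53.5% ± 5.28 at 3 h, 59.6% ± 2.88 at 6 h and 57.2% ± 1.51 at 12 h. Serpina1d held 10.2% ± 0.16, 10.6% ± 1.03, 8.30% ± 1.14 and 8.13% ± 0.53, a difference past the threshold (exact permutation test, adjusted p = 0.023) that was lost without 3 h replicate 1 or 3 (adjusted p = 0.0572 each). Shares of Serpina1a, Serpina1b, Serpina1c and Serpina1e did not pass it (exact permutation test, adjusted p = 0.678, 0.332, 0.555 and 0.312). Without 3 h replicate 2 those of Serpina1b, Serpina1c and Serpina1e did (exact permutation test, adjusted p = 0.0249, 0.0474 and 0.00935). The number of Serpina1 shares called thus depends on single 3 h libraries.

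**Figure D3:**
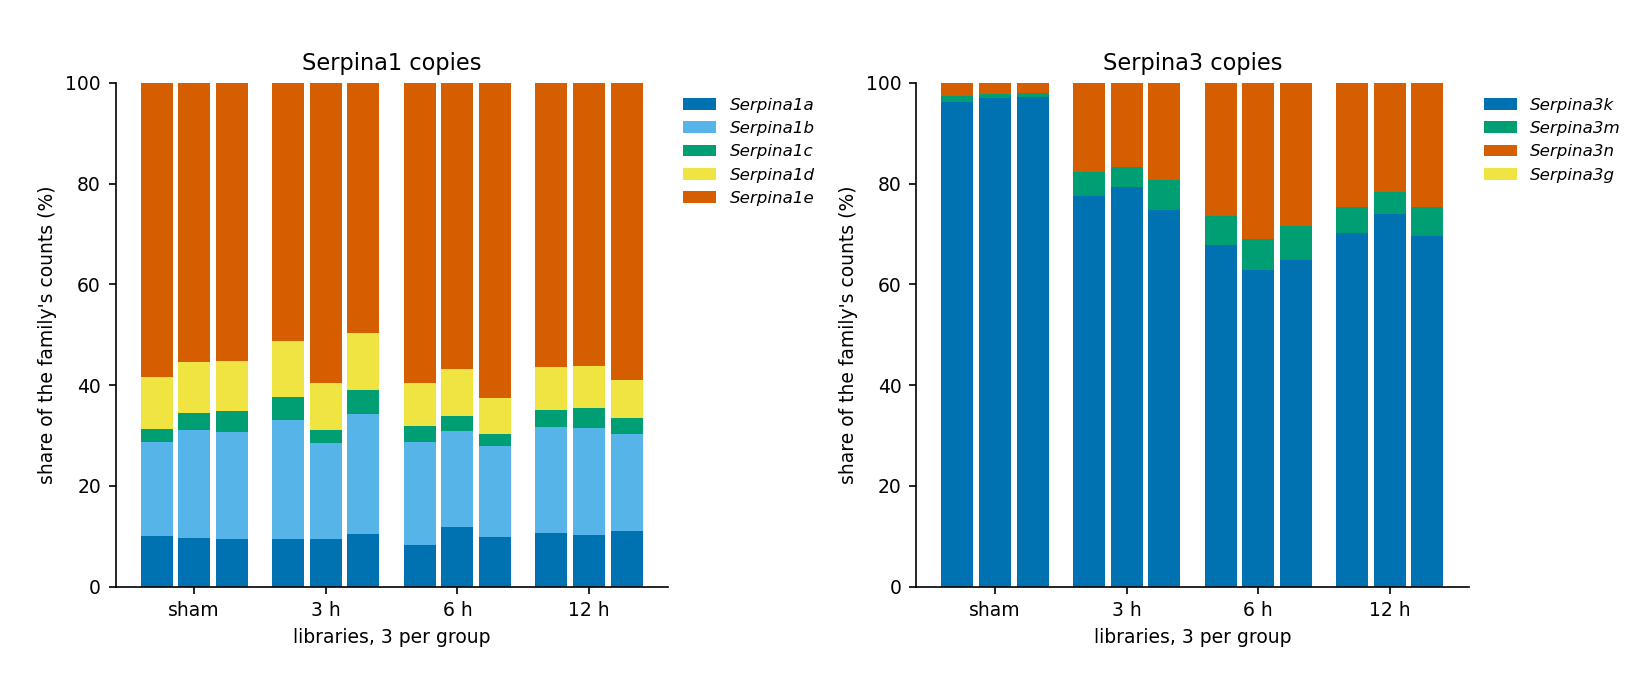
Share of each family's summed counts held by each copy (vertical axis, percent), a stacked bar per library, for Serpina1 on the left and Serpina3 on the right. Serpina3k goes from a mean of 96.7% in sham to 65.1% at 6 h as Serpina3n goes from 2.21% to 28.6%, and Serpina3g is too small to be seen at 0.0831% or less.

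Ranked by level per length, Serpina1e led in sham liver (7915 FPKM), followed by Serpina3k (5906), Serpina1b, Serpina1d, Serpina1a and Serpina1c, then Serpina3n, Serpina6, Serpina3m and Serpina3g. Serpina1b overlapped Serpina1d there, and Serpina6 overlapped Serpina3m. Serpina3k had the highest mean at 3 h, 6 h and 12 h, but its libraries overlapped those of Serpina1e at 3 h and 6 h. Serpina3n took the third place at 6 h and 12 h, apart from both neighbours in the order, and Serpina6 and Serpina3g held the last 2 places at 3, 6 and 12 h. Some of this order depends on gene length. The length of a single annotated transcript per gene was also used in place of all exons. The order of the Serpina1 copies in sham was then the same (Serpina1b at 3332 ± 363 FPKM instead of 1923 ± 209). But the mean of Serpina1e stood above that of Serpina3k at 3 h (10607 against 9000) and at 6 h (13371 against 11696). Serpina3n at 12 h (2868 ± 462) then overlapped Serpina1b (2718 ± 134). On that length Serpina1a stood above Serpina1d at 6 h (1830 against 1708) and 12 h (1247 against 1078). The order among the Serpina1 copies may also depend on how shared reads were counted, which is not given. Serpina1a and Serpina1c, the lowest of these copies in sham, shared the most 100-base stretches with other serpins of the cluster (40.8% and 58.5%). The part of shared reads in this order was not tested.

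The region upstream of the start site is printed for Serpina3n, Serpina3g and the most abundant Serpina1 copy, Serpina1e. RefSeq promoters on GRCm38.p6 matched 7 of the 10 symbols, and the 250 bases before the start are given 5′ to 3′ on the strand of the gene. Capitals mark TTCNNNGAA, the STAT consensus, or GTTAAT, an arm of the HNF1 consensus, searched on both strands.
Serpina3n, chr12:104406458-104406707: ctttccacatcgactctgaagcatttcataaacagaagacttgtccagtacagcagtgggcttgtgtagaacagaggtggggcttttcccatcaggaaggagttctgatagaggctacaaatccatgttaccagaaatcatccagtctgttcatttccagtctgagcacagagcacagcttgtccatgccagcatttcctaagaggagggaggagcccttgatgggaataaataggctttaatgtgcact
Serpina3g, chr12:104235897-104236146: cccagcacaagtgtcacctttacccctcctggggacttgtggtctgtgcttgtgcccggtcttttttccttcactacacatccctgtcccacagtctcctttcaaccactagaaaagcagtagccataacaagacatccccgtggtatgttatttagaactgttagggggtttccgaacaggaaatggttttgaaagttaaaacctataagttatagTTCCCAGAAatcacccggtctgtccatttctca
Serpina1e, chr12:103956898-103957147: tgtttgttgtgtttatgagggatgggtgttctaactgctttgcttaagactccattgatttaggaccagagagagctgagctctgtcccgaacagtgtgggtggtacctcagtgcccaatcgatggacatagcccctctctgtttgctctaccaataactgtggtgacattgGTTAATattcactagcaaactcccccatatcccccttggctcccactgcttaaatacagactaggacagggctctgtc
GTTAAT was found in 5 of the 7 promoters, those of the 5 Serpina1 copies, and in 6.47% of 32536 promoters of this length. TTCNNNGAA was found in 1 of 7, that of Serpina3g, 33 bases before the start, and in 7.04% of promoters. The C/EBP motif TTGCNNAA was in 3 of 7 (Serpina1b, Serpina1d and Serpina1e) and in 9.57% of promoters, and TATAAA was in none of the 7 and in 12.3%. No motif shared letters with another in the printed stretches. The Serpina1 promoters were 92.1% to 98% identical to each other. These matches describe letters in a window and not bound sites.

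The other serpins of the same cluster were followed as a list of 15, of which 8 were tested. At 3 h 6 were called and at 6 h 5, all of them higher, and at 12 h 2 were higher and 1 was lower. The median differences were 1.74, 1.36 and 0.03. For this list and those that follow, the shares over all tested genes were 9.81% higher and 11.7% lower at 3 h. They were 16.8% and 18.2% at 6 h, and 13.5% and 15.3% at 12 h. The filter favoured such rises: Serpina3c and Serpina3i reached 1 FPKM only in 3 h and 6 h libraries, and Serpina3h only in 3 h libraries. Serpina9, at 49, 130 and 69 counts in sham and 19, 38 and 19 at 3 h, was not tested. Serpina10, which inhibits coagulation factor Xa together with protein Z, rose by 1.73 ± 0.16, 2.60 ± 0.16 and 1.96 ± 0.16 (edgeR adjusted p = 8.48e-06, 2.05e-07 and 3.42e-06). Serpina3i had 3 counts in the sham libraries together and 258 at 6 h, a ratio of 107 with an exact 95% interval of 36.2 to 522 that covers counting error only. Of these 258, 133 were in 6 h replicate 3. Serpina3c was higher by 4.03 ± 0.88 at 6 h (adjusted p = 0.0031), by 2.69 without 6 h replicate 3 and by 4.75 without sham replicate 3, and Serpina3h was higher by 2.41 ± 0.47 at 3 h (adjusted p = 0.00272). The neighbours of Serpina3g on either side, Serpina3f and Serpina3h, were also highest at 3 h. Their differences were 1.74 and 2.41 there and -0.17 and 0.23 at 12 h. Serpina3h passed the filter only through its 3 h libraries, so its 3 h peak was favoured by the filter. It is annotated as a transcribed pseudogene and had 22 to 31 counts per library at 3 h. Of the 50-base stretches of Serpina3g, 8.89% were shared with Serpina3h, more than with any other serpin of the cluster. The part of shared reads in the Serpina3h values was not tested. Without sham replicate 2 or 6 h replicate 3 the 6 h count was 3.

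**Figure D4:**
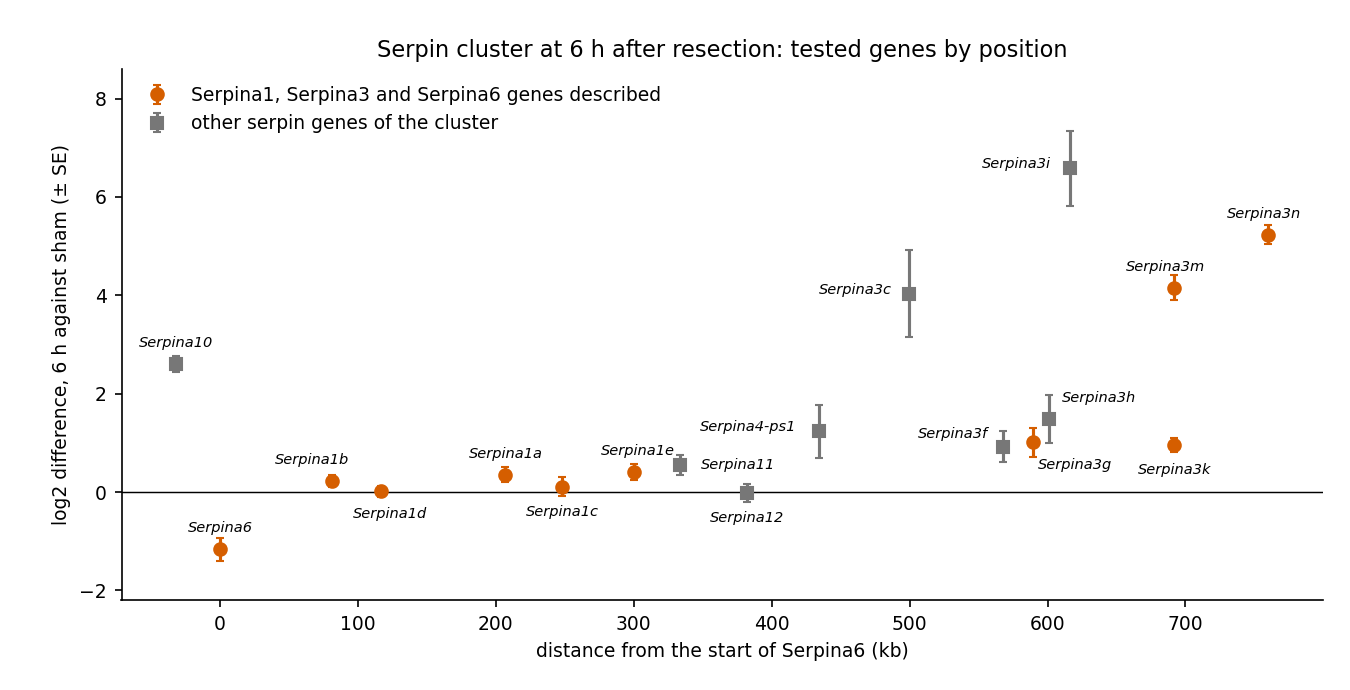
Difference between 6 h and sham on the log2 scale (vertical axis, edgeR ± SE) against distance from the start of Serpina6 in kilobases (horizontal axis) for the tested serpin genes of the cluster, the 10 genes described as circles and the others as squares. The 5 Serpina1 circles lie between 0.01 and 0.41, Serpina3n is the right-most at 5.23, and Serpina3k and Serpina3m are drawn at the same position because their deposited genes begin at the same base. The point of Serpina3i rests on 3 sham counts. Serpina3c, Serpina3h and Serpina3i passed the filter only through libraries taken after resection.

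Serpins outside the cluster showed no common direction. Of 11 tested, 3 were higher and 1 lower at 3 h, 2 and 2 at 6 h, and 2 and 4 at 12 h. Serpina7, the thyroxine-binding globulin, rose by 2.42 ± 0.36 at 6 h (edgeR adjusted p = 0.00019). Serpinb9, an intracellular granzyme B inhibitor, was lower at 6 h (-1.36 ± 0.38, adjusted p = 0.0121). Sham replicate 1 stood apart there at 8.74 FPKM beside 2.54 and 2.68, and without it the difference was -0.54, still called. The Serpinb9 call was lost with limma on log2(FPKM + 1) (adjusted p = 0.0526) and with only the libraries compared (adjusted p = 0.0582). Serpinh1, a collagen chaperone, was higher at 3 h (1.06 ± 0.32, adjusted p = 0.0315) and lost that call without sham replicate 1 (0.82, adjusted p = 0.0762), 3 h replicate 1 (0.92, adjusted p = 0.103) or 3 h replicate 2 (0.89, adjusted p = 0.117). The count called at 3 h was 2 without sham replicate 1 or 3 h replicate 1 and 1 without 3 h replicate 2, and that at 12 h was 3 without 12 h replicate 1.

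Among 22 tested protease inhibitors that are not serpins, 8 were higher and 1 lower at 3 h, 10 and 2 at 6 h, and 8 and 4 at 12 h, with a median of 0.18, 0.40 and 0.29. A2m, the broad protease trap α2-macroglobulin, rose by 8.14 ± 1.04 at 6 h (edgeR adjusted p = 5.49e-05), from 0.0419, 0.0536 and 0.0444 FPKM to 4.58, 5.29 and 31.4, and by 6.66 without 6 h replicate 3. Itih4 and Itih3, inter-α-trypsin inhibitor heavy chains, rose by 2.68 ± 0.16 and 2.40 ± 0.15 at 6 h (adjusted p = 1.67e-07 and 2.27e-07). Timp1, an inhibitor of matrix metalloproteinases, was listed at 0, 0 and 0.176 FPKM in sham libraries and at 1.11, 2.05 and 2.90 at 6 h (adjusted p = 0.000394). Its counts were 0, 0 and 3 in sham and 14, 28 and 35 at 6 h. A2m and Timp1 passed the filter only through libraries taken after resection, which favours a higher call. The 12 h count was 7 without 12 h replicate 3.

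Of 20 proteases that such serpins can act on, 12 were tested, with 1 higher and 2 lower at 3 h, 1 and 3 at 6 h, and 2 and 7 at 12 h. Over all tested genes, 21.6% were called in either direction at 3 h, 35% at 6 h and 28.8% at 12 h. Klkb1, plasma prekallikrein, fell by 2.10 at 6 h (SE 0.18, edgeR adjusted p = 2.2e-06). Ctsl, the lysosomal cathepsin L, rose by 1.56 ± 0.14 at 6 h (adjusted p = 3.48e-06), and Proc, the protein C precursor, fell by 1.04 at 12 h (SE 0.20, adjusted p = 0.00176). Prtn3, the neutrophil proteinase, was at 1.75, 3.54 and 1.88 FPKM at 12 h and 0.238, 0.590 and 0.360 in sham (2.56 ± 0.50, adjusted p = 0.00219). It passed the filter only through libraries taken after resection, which favours a higher call. Elane, neutrophil elastase, was not above the filter. The 6 h count of 4 was 7 without sham replicate 1 and 2 without 6 h replicate 1.

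Regulators of serpin transcription were followed as a list of 24, all tested. At 3 h 12 were higher and 6 lower, at 6 h 11 and 7, and at 12 h 5 and 7, with a median of 0.59, 0.44 and -0.14. Socs3, a feedback inhibitor of STAT3 signalling, rose by 3.96 ± 0.40 at 3 h and 4.45 ± 0.41 at 6 h (edgeR adjusted p = 1.88e-05 and 3.9e-06), the latter 5.05 without sham replicate 2. Il1r1, the interleukin 1 receptor, rose by 4.33 ± 0.31 at 6 h (adjusted p = 5.39e-07), Osmr, the oncostatin M receptor, by 3.32 ± 0.24 (adjusted p = 5.39e-07), and Cebpd, a C/EBP family factor, by 3.06 ± 0.53 at 3 h (adjusted p = 0.00122). Cebpd was at 0.220, 1.09 and 2.89 FPKM in sham, and its difference was 4.15 without sham replicate 3. Osmr passed the filter only through libraries taken after resection, which favours a higher call. Socs3, Il1r1 and Osmr had their highest mean at 6 h, as Serpina3n did, and Cebpd at 3 h, as Serpina3g did. A link between these regulators and the serpins was not tested.

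Genes of the secretory path that α1-antitrypsin uses were called mainly at 6 h and 12 h. Of 20 tested, 1 was called at 3 h (lower), 10 were higher and 2 lower at 6 h, and 9 higher and 1 lower at 12 h, with a median of 0.05, 0.51 and 0.38. Sec23b, a COPII coat subunit, rose by 2.10 ± 0.21 at 6 h (edgeR adjusted p = 7.81e-06), Syvn1, a ubiquitin ligase of the endoplasmic reticulum, by 1.97 ± 0.25 (adjusted p = 4.84e-05), and the chaperone Hspa5 by 1.68 ± 0.21 (adjusted p = 5.09e-05). Hsp90b1, a further chaperone, rose by 1.09 ± 0.19 at 12 h (adjusted p = 0.00122). The 3 h count was 2 without sham replicate 1 and the 12 h count 6 without 12 h replicate 3.

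Beside Serpina6, 14 genes of corticosteroid handling and response were tested. At 3 h 3 were higher and 3 lower, at 6 h 3 and 8, and at 12 h 1 and 5, with a median of 0.10, -0.82 and -0.40. Fkbp5, a glucocorticoid-induced cochaperone, rose by 4.06 ± 0.34 at 3 h (edgeR adjusted p = 4.57e-06). Nr3c2, the mineralocorticoid receptor, fell by 2.76 at 6 h (SE 0.25, adjusted p = 3.93e-06). Dusp1 fell by 2.12 at 12 h (SE 0.33, adjusted p = 0.0005), and Akr1d1, a steroid reductase, fell by 1.69 (SE 0.27, adjusted p = 0.000515). The 12 h count was 10 without sham replicate 1.

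The genes whose pattern was most like that of each serpin were found by Pearson's r of log2(FPKM + 1) over the 12 libraries, which share 4 groups, so r reflects the group means above all. Nearest to Serpina3n were Lcn2 (r = 0.994), Itih4 (0.991) and Nnmt (0.989), and Lcn2 went from a mean of 0.739 FPKM in sham to 955 at 6 h. Nearest to Serpina3g were Sbno2 (0.940), Urgcp (0.928) and Nle1 (0.927). Nearest to Serpina6 were Pipox (0.989), Inmt (0.987) and Gckr (0.976), and Inmt went from a mean of 470 FPKM in sham to 63.0 at 12 h. Nearest to the Serpina1 sum were Kdm4a (0.923), Nelfa (0.912) and Pnrc1 (0.908).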

How the data were processed

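Poly(A) RNA of whole liver was measured in 12 libraries in 4 groups, set by sample titles. Per the submitters' processing notes, HISAT2 2.0.5 and featureCounts 1.5.0-p3 were used with GRCm38 (mm10), beside DESeq2 1.20.0, fastp and CASAVA 1.8, in roles that the notes do not give. Per the file headers, the deposited table holds whole-number counts and FPKM per gene and library. The deposited FPKM equal the count divided by gene length and an effective library size, and the gene lengths of the 10 serpins equal all their exons in GENCODE M21.

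Counts were tested with the edgeR 4.0.16 quasi-likelihood test in R 4.3.3, with TMM scaling, 4 groups in 1 model, genes of 1 FPKM or more in 3 or more libraries, two-sided contrasts and Benjamini-Hochberg adjustment over 11451 genes. Calls were made where the adjusted p was under 0.05. These genes hold at least 99.1% of each library's counts, and the biological coefficient of variation was 20.6%. Serpina3c, Serpina3h, Serpina3i, A2m, Timp1, Prtn3 and Osmr passed the filter only through libraries taken after resection, which favours a higher call. Copy shares were tested by an exact permutation test, two-sided in effect because it uses the spread among group means. Exact 100-base matches, coding identity and motifs were computed in Python 3.11.15 with Biopython 1.88. The scripts were tested on simulated data.

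The genes, the 7 lists and the 8 marker lists were chosen with earlier results of these data known. Of 209 symbols, 207 were in the table. All 10 serpins are named, with up to 4 called genes of each list by largest difference, and the 3 genes nearest in pattern to Serpina3n, Serpina3g, Serpina6 and the Serpina1 sum. Serpina3f, Serpina9, Elane, Apob and Cps1 were named after their values were seen. A gene that this rule takes is not reported here. Alternatives were median-ratio scaling, library totals, no filter, DESeq2 1.42.0, limma 3.58.1 on log2(FPKM + 1) and log2(FPKM + 0.1), only the libraries compared, shares of FPKM, a replicate block and each library left out. Single-transcript lengths and a fit without both sham replicate 1 and 6 h replicate 3 were added after the data were seen. Libraries of a group differed by more than sampling noise.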

Additional observations from a re-analysis of the deposited data

Results flagged for a closer look

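Among the 10 serpins, 17 differences between times after resection passed the edgeR test of the difference itself. Each says that the response to resection, measured against the same sham libraries, was not the same at 2 times. Of all tested genes, 8.63% were called between 3 h and 6 h, 24.7% between 6 h and 12 h and 36% between 3 h and 12 h. Of 21 alternatives, Serpina1c lost its 3 h to 12 h call in 11 and Serpina3k its 6 h to 12 h call in 7. Serpina1a lost its 6 h to 12 h call in 6 and Serpina3n its 3 h to 12 h call in 6. The other calls were lost in 5 or fewer. Between 3 h and 6 h the response of Serpina3n grew by 1.32 on the log2 scale and that of Serpina3m by 1.01. Between 6 h and 12 h the difference was -1.33 for Serpina6, -1.0 for Serpina3g, -0.86 for Serpina3m, -0.82 for Serpina3n, -0.69 for Serpina1e, -0.65 for Serpina1d, -0.54 for Serpina1a, -0.53 for Serpina1b and -0.43 for Serpina3k. Between 3 h and 12 h it was -1.94 for Serpina6, -1.85 for Serpina3g, -0.80 for Serpina1d, -0.55 for Serpina1c, -0.53 for Serpina1b and 0.50 for Serpina3n. Mean levels of Serpina3g were highest at 3 h and those of the other Serpina3 copies at 6 h, and of the 10 genes Serpina6 was the one with a lower mean in each later group.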

How the results depend on the processing

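The 60 differences of single serpins between groups were recomputed under 21 alternatives each, and of 1260 values 1176 kept direction and call, 48 lost the call, 14 gained it and 22 changed sign. The Serpina3 sum kept its direction and call at 3, 6 and 12 h in all of them. The Serpina1 sum at 3 h was -0.057 with library totals. At 6 h it passed the threshold with DESeq2 (0.31) and with limma on log2(FPKM + 1) (0.34), and at 12 h without both sham replicate 1 and 6 h replicate 3 (-0.34). With a library left out the sum ranged from 4.9e-05 to 0.21 at 3 h, from 0.23 to 0.36 at 6 h, and from -0.34 to -0.29 at 12 h. From 3 h to 6 h 4 serpins were called with no filter and 4 with DESeq2, against 2, and 1 to 4 with a library left out. From 6 h to 12 h 3 were called with library totals, against 9, and 5 to 9 with a library left out. Copy shares past the threshold numbered 4 to 8, against 5, with a library left out. The causes were not tested.

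Library totals moved the median of all tested genes to -0.20 at 3 h, -0.32 at 6 h, -0.12 from 3 h to 6 h, 0.26 from 6 h to 12 h and 0.17 from 3 h to 12 h, and the share of calls that were higher to 25%, 22%, 29.9%, 84.8% and 69.7%, against 45.5%, 48.1%, 51.5%, 49.0% and 49.5%. Against that shift, values with library totals were -0.060 for Serpina1a, -0.0077 for Serpina1d and -0.12 for Serpina1e at 3 h, -0.10 for Serpina1b, -0.21 for Serpina1c and -0.30 for Serpina1d at 6 h, -0.0092 for Serpina3g at 12 h and 0.13 for Serpina3k from 3 h to 12 h. Without both doubted libraries Serpina1c was at -0.018 at 6 h and Serpina3g at -0.14 at 12 h.

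With a library left out, ranges that crossed 0 were -0.16 to 0.18 for Serpina1e at 3 h, -0.067 to 0.30 for Serpina1c and -0.032 to 0.043 for Serpina1d at 6 h, -0.18 to 0.29 for Serpina3g at 12 h, -0.054 to 0.041 for Serpina1b from 3 h to 6 h, and -0.12 to 0.034 for Serpina3k and -0.0021 to 0.37 for Serpina3m from 3 h to 12 h. None of these 7 was called.

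The replicate numbers are not stated to pair the samples. Of 18 pairs of same-numbered libraries 4 deviated together by an r over 0.1 (-0.25 to 0.17). Sham replicate 1 and 6 h replicate 3, of unlike numbers, gave 0.32. With 3 libraries per group this check cannot decide whether the numbers pair the samples. The replicate block gave 4, 5, 5, 2, 9 and 5 called serpins in the 6 comparisons, against 4, 5, 5, 2, 9 and 6, the loss being Serpina1c from 3 h to 12 h (-0.54, adjusted p = 0.0635).

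Counts over all tested genes moved by over 1.5 times as follows. At 3 h 1532 were called with only the libraries compared, against 2468. At 12 h 5494 were called without both doubted libraries and 2112 to 5263 with 1 left out, against 3298. From 3 h to 6 h 1492 were called with no filter, 1534 with DESeq2, 1485 with only the libraries compared and 400 to 2111 with 1 left out, against 988. From 6 h to 12 h 1853 were called without 6 h replicate 2, against 2828. List counts that moved so were: other cluster serpins, 3 at 6 h with library totals and 5 at 12 h with no filter; serpins elsewhere, 2 at 3 h with limma at either pseudocount, with only the libraries compared and without both; protease inhibitors, 5 at 3 h with only the libraries compared; target proteases, 7 at 6 h with library totals; the secretory path, 3 (library totals), 2 (DESeq2) and 3 (without both) at 3 h, 7 at 6 h (library totals) and 6 at 12 h (only the libraries compared); corticosteroid genes, 10 at 12 h without both. Depth limits Serpina3g most, at 71 counts in its lowest library.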

Other observations

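Markers of other liver cells, followed beside the serpins, moved in several directions. Over all tested genes, 9.81% were called higher and 11.7% lower at 3 h, 16.8% and 18.2% at 6 h, and 13.5% and 15.3% at 12 h. Of 12 neutrophil markers 4 were tested, with sham means of 0.0897 to 0.697 FPKM, below the filter level, which favours higher calls. Of these 4 tested, 4 were called higher at 3 h, 3 at 6 h and 2 at 12 h. Their median differences were 3.00, 2.94 and 1.45 on the log2 scale. Among 3 tested cholangiocyte markers 2, 3 and 1 were higher, with summed levels of 36.0 to 42.6 CPM in sham and 61.8 to 82.2 at 6 h. Kupffer cell and monocyte markers had 1 of 9 called at 3 h (higher), 2 higher and 1 lower at 6 h, and 1 higher and 3 lower at 12 h. Endothelial markers had 3 of 8 higher at 3 h, 2 higher and 1 lower at 6 h, and 1 higher and 2 lower at 12 h, with sums of 156 to 169 CPM in sham and 118 to 144 at 12 h. Stellate cell and fibroblast markers had 2 of 9 higher at 3 h, none called at 6 h, and 1 higher and 1 lower at 12 h. Red blood cell markers had 2 of 5 higher at 3 h, none called at 6 h and 4 lower at 12 h, with sums of 146 to 177 CPM in sham and 77.6 to 110 at 12 h. Hepatocyte markers had none of 7 called at 3 h or 6 h, and 5 lower at 12 h, when the means of Apob and Cps1 were above sham. The part of these cells in the serpin results was not tested.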
